A study of Homo sapiens with 24 samples.

Results

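Respiratory complex I, the NADH:ubiquinone oxidoreductase of the inner mitochondrial membrane, was followed through the gene symbols that begin with NDUF in A2780 cells, a human line grown from epithelial ovarian cancer. Of 22446 gene symbols in the expression table, 44 began with NDUF. They comprised 37 complex I subunits, the 4 assembly factors NDUFAF1 to NDUFAF4, the pair NDUFA4 and NDUFA4L2, and the readthrough transcript NDUFC2-KCTD14. Cells were kept at normal oxygen (normoxia) or in a chamber at 1% oxygen (hypoxia) for 6 hr, 48 hr or 6 days. Each of these 6 groups had 2 libraries of ribosome-depleted total RNA: normoxia 1 and 2 and hypoxia 3 and 4 at 6 hr, normoxia 5 and 6 and hypoxia 7 and 8 at 48 hr, and normoxia 9 and 10 and hypoxia 11 and 12 at 6 days. All groups shared one cell line, RPMI 1640 medium with serum and gentamicin, 5% CO2 and 37 degrees, so every value is from a single line in culture. Nothing in the labels ties the 2 libraries of a group to different dishes, and p-values below measure only the spread between these libraries, which may be technical.

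Complex I passes electrons from NADH to ubiquinone and pumps protons across the inner membrane. Core subunits hold the flavin, the iron-sulfur clusters and the quinone site in a matrix arm, while accessory subunits surround both the matrix arm and the membrane arm. Assembly factors join the modules and are not part of the finished enzyme. In low oxygen, the hypoxia-inducible factors (HIF) are known to turn cells from respiration towards glycolysis, and NDUFA4L2 and the microRNA miR-210 are known HIF targets that act on the respiratory chain. The core subunits made in mitochondria from mitochondrial DNA were not analysed here.

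The sequences below are, but for a short NDUFB8 site, windows of 250 bases before an annotated start. They belong to NDUFB8, the distal-arm subunit with the highest rise, to NDUFS3 and NDUFV1, core subunits that fell, and to NDUFA4L2. They were taken from RefSeq on GRCh38.p14, not from the build of the deposited tables, and 39 of the 44 symbols had an entry. Capitals mark the HIF core ACGTG or GCGTG and the ETS motif CCGGAAG on either strand, so CACGT or CACGC, and likewise CTTCCGG, are reverse strand readings. The first NDUFB8 window, chr10:100529924-100530173 on the minus strand, holds no whole motif. Its last base is the first letter of 1 HIF core, CACGT, which runs on past the end of the window. The same core lies 53 bases before a downstream start of the gene, within chr10:100529908-100529937. The NDUFS3 window is chr11:47578824-47579073 (plus strand), that of NDUFV1 is chr11:67606686-67606935 (plus strand) and that of NDUFA4L2, listed by RefSeq as COXFA4L2, is chr12:57240763-57241012 (minus strand).
NDUFB8, first start: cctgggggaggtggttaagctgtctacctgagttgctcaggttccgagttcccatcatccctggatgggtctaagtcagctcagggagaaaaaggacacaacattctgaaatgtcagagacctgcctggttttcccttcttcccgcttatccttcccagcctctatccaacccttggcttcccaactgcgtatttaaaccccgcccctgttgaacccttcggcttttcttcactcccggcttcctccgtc
NDUFB8, site before the downstream start: cggcttcctccgtCACGTttggcccggctc
NDUFS3: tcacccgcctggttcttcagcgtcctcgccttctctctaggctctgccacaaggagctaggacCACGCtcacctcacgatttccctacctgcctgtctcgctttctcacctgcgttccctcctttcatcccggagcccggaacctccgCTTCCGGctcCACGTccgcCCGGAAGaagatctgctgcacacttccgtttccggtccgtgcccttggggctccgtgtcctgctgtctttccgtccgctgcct
NDUFV1: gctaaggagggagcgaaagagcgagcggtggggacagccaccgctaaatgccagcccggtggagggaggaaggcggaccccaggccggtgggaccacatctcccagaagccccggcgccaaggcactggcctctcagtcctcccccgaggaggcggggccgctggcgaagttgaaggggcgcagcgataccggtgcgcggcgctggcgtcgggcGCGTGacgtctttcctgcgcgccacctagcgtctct
NDUFA4L2: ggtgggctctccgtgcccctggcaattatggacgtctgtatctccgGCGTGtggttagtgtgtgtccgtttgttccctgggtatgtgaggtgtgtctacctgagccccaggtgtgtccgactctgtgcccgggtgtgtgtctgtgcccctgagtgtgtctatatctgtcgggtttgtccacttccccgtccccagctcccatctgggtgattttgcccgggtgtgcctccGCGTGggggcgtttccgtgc

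The HIF core occurred within 250 bases before a start in 27 of the 39 NDUF genes (69.2%), against 47.4% of 27305 genes with an entry. That background includes genes too low to be tested here, while nearly all NDUF genes were tested. The share among the 11933 tested genes was not counted, and base content was not compared. Among genes tested below at 6 days, 9 of the 14 with an entry that fell and 1 of the 3 that rose held it. GCGTG stood in 23 of 39, ACGTG in 10 of 39 (some genes hold both) and CCGGAAG in 6 of 39, against 36.2%, 21.7% and 10.2% of all genes. Both strands were searched, matches may share bases, and these are counts of letters in a window, with no binding measured.

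Levels were compared as RPKM, the reads of a gene scaled by its transcript length in kilobases and by library size in M reads (M, mega), which allows genes to be ranked by level. NDUFS5, a membrane-arm subunit, had the highest mean over the 12 libraries (104 RPKM), followed by the acyl carrier protein NDUFAB1 (66.6 RPKM) and NDUFB2 (55.8 RPKM). NDUFA10 was lowest with 9.23 RPKM, and its range of 7.23 to 10.4 RPKM overlapped the ranges of NDUFC2, NDUFV3, NDUFA7 and NDUFS7 just above it. NDUFS5 ranked first or second of the 37 subunits in every library, whereas NDUFB8 moved between rank 1 and rank 15 and NDUFA13 between rank 2 and rank 20. The 4 assembly factors lay between 5.83 RPKM (NDUFAF4 in library 11) and 17.8 RPKM (NDUFAF3 in library 10), at the level of the less abundant subunits.

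RPKM are shares of a library: a lower value cannot be told apart from more RNA of other genes, nor can fewer cells with a transcript be told apart from less of it per cell. The summed RPKM of the 37 subunits was 1117 and 1007 in normoxia and 1259 and 1128 in hypoxia at 6 hr. It was 1279 and 1285 against 1372 and 1295 at 48 hr. At 6 days it was 1090 and 1086 in normoxia against 1018 and 994 in hypoxia. The hypoxia libraries thus lay above the normoxia libraries at 6 hr and 48 hr and below them at 6 days, and the normoxia libraries themselves ranged over time from 1007 to 1285 RPKM. No test was made on these sums.

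**Figure D1:**
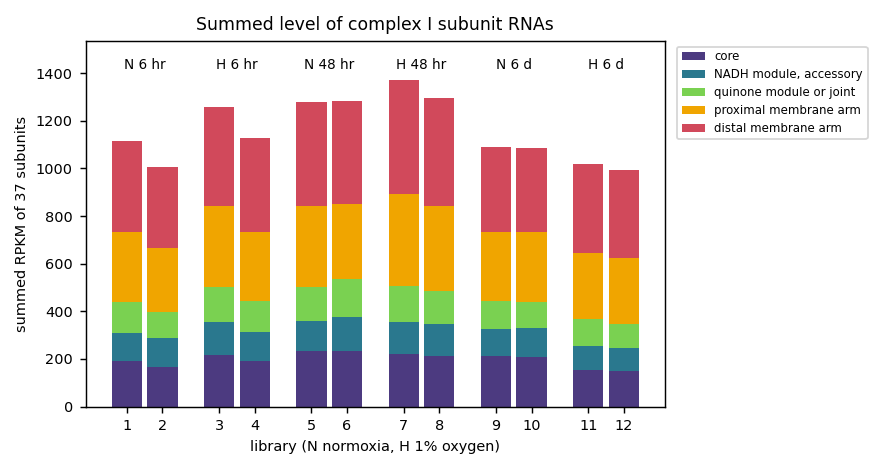
Summed RPKM of the 37 complex I subunits in each of the 12 libraries (bars, vertical axis in RPKM from 0), split by role (colours), with oxygen and time above the bars (N, normoxia and H, 1% oxygen). The tallest bars are those of 48 hr, and the lowest are library 12 at 994, library 2 at 1007 and library 11 at 1018 RPKM.

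A symbol was tested if 2 or more of the 12 libraries reached 1 RPKM, which 42 of the 44 NDUF rows and 11933 symbols in all did. Tests were made with limma on log2(RPKM + 0.5) with Benjamini-Hochberg adjustment over the 11933. NDUFA4L2 and NDUFC2-KCTD14 did not reach that level. Fold changes are on the log2(RPKM + 0.5) scale, and a change was called at an adjusted p under 0.05. Total reads implied by the precursor microRNA table of the same libraries were 25.1 M to 51.7 M. Libraries 1 and 2, normoxia at 6 hr, differed most, with a median absolute log2 difference of 0.20 over the tested NDUF genes, against 0.10 to 0.14 in the other 5 groups. Of the epithelial markers EPCAM and KRT18 were present (33.2 to 42.2 and 23.7 to 38.2 RPKM), KRT8 was at 0.615 to 1.96 RPKM, while KRT19, CDH1 and the ovarian and Mullerian markers PAX8, WT1 and MUC16 were at or under 0.25 RPKM, so most defining markers of the labelled tissue were near 0. Leukocyte markers summed to 0.44 RPKM or less and endothelial markers to 0.24 RPKM or less in every library.

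At 6 hr of hypoxia, 1 of 42 tested NDUF genes was called, NDUFA13, and none fell, against 3.59% of all genes called (3.39% higher and 0.201% lower). NDUFA13, also known as GRIM-19, is a membrane-arm subunit with a matrix portion next to the quinone site. It stood at 27.0 and 23.2 RPKM in normoxia and at 57.5 and 35.3 RPKM in hypoxia. The groups did not overlap, but the 2 hypoxia libraries differed more from each other for NDUFA13 than for any other NDUF gene. The rise was 1.79-fold (log2 0.84 ± 0.20 SE, adjusted p = 0.0465 by limma). This call held in 3 of the 12 fits that left out 1 library, with adjusted p from 0.00600 to 0.315, and was lost without libraries 1, 2, 3 and 5 to 10 in turn, without the filter, without the intensity trend and with the compared groups alone. Without library 1, 3 NDUF genes were called, and without library 11 or 12, 2 were. In library 4, the lower hypoxia library, the fibroblast collagens COL1A1 and COL1A2 were at 2.50 and 3.06 RPKM, against at most 0.785 and 0.125 RPKM in the other libraries, and the part of this in the result was not tested.

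The other members at the ends of the 6 hr range were not called. NDUFA6, a subunit that binds the acyl carrier protein, was at 17.5 and 13.6 RPKM in normoxia and 26.8 and 22.2 RPKM in hypoxia (log2 0.64, adjusted p = 0.0551 by limma). NDUFA7, of the NADH module, was at 5.11 and 10.2 against 11.6 and 8.55 RPKM, with overlapping groups (adjusted p = 0.440). At the low end, NDUFA11 was at 14.6 and 22.8 against 15.4 and 13.9 RPKM, again overlapping (adjusted p = 0.585). NDUFB5 was at 29.99 and 28.2 against 23.4 and 25.8 RPKM, and NDUFV3 at 12.2 and 11.999 against 10.6 and 10.4 RPKM, both without overlap (adjusted p = 0.237 and 0.533). Over all 42, 34 log2 fold changes were above 0 with a median of 0.13, against a median of 0.04 for all genes tested. The lack of further calls does not show that the other members were unchanged.

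At 48 hr of hypoxia NDUFB8 and NDUFB11 rose and the assembly factor NDUFAF4 fell, 3 of 42, against 12.1% of all genes (9.24% higher and 2.89% lower). NDUFB8, a distal membrane-arm subunit whose protein is widely used as an index of assembled complex I, was at 37.8 and 37.1 RPKM in normoxia and at 69.0 and 62.1 RPKM in hypoxia. The hypoxia libraries were far above the normoxia libraries, a 1.74-fold rise (log2 0.80 ± 0.11 SE, adjusted p = 0.00092). NDUFB11, an X-linked distal-arm subunit, rose 1.25-fold (28.9 ± 2.30 to 36.3 ± 0.284 RPKM, SD, n = 2, adjusted p = 0.0353 by limma). NDUFAF4, which acts early in the building of the quinone module, was at 11.2 and 11.03 RPKM in normoxia and 9.02 and 8.99 RPKM in hypoxia, a 1.22-fold fall (adjusted p = 0.0336 by limma). Of the 3 calls only that of NDUFB8 held in all 12 fits that left out 1 library. Those of NDUFB11 and NDUFAF4 were lost without any 1 of libraries 5 to 12 (largest adjusted p 0.230 and 0.175).

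The remaining members at the ends of the 48 hr range did not pass the test. NDUFA3, a small membrane-arm subunit, was at 11.95 and 12.4 against 22.6 and 15.9 RPKM (adjusted p = 0.0689). NDUFA13 was at 50.4 and 48.4 against 62.1 and 64.6 RPKM (adjusted p = 0.293), where normoxia at 6 hr had been at 27.0 and 23.2 RPKM. NDUFS3 was at 32.9 and 31.5 against 26.7 and 28.6 RPKM and NDUFV2 at 54.9 and 63.7 against 52.3 and 50.1 RPKM (adjusted p = 0.261 and 0.277). The median over the 42 was −0.03, against 0.01 for all genes tested.

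At 6 days of hypoxia 17 of 42 tested NDUF genes fell and 3 rose. Over all genes 18.3% fell and 23.9% rose, 42.2% in all, so the share that fell among NDUF genes (40.5%) was above the background and the share that rose (7.14%) below it. The median log2 fold change of the 42 was −0.28, against 0.04 for all genes tested. The falls were 1.21-fold (NDUFC2) to 1.84-fold (NDUFA7), and the rises 1.54-fold (NDUFA5) to 2.09-fold (NDUFB8). All 3 rises held in every fit that left out a library and in the other alternatives, as did 7 of the 17 falls: NDUFS1, NDUFS3, NDUFS6, NDUFS7, NDUFV1, NDUFB9 and NDUFAF3. Without library 10 the count was 3 higher and 9 lower and without library 12 it was 3 higher and 10 lower. Among falls not taken up below, NDUFB6 was lost without library 9 or 12, NDUFB10 without any 1 of 10 to 12 and NDUFS8 without any 1 of 9 to 12.

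**Figure D2:**
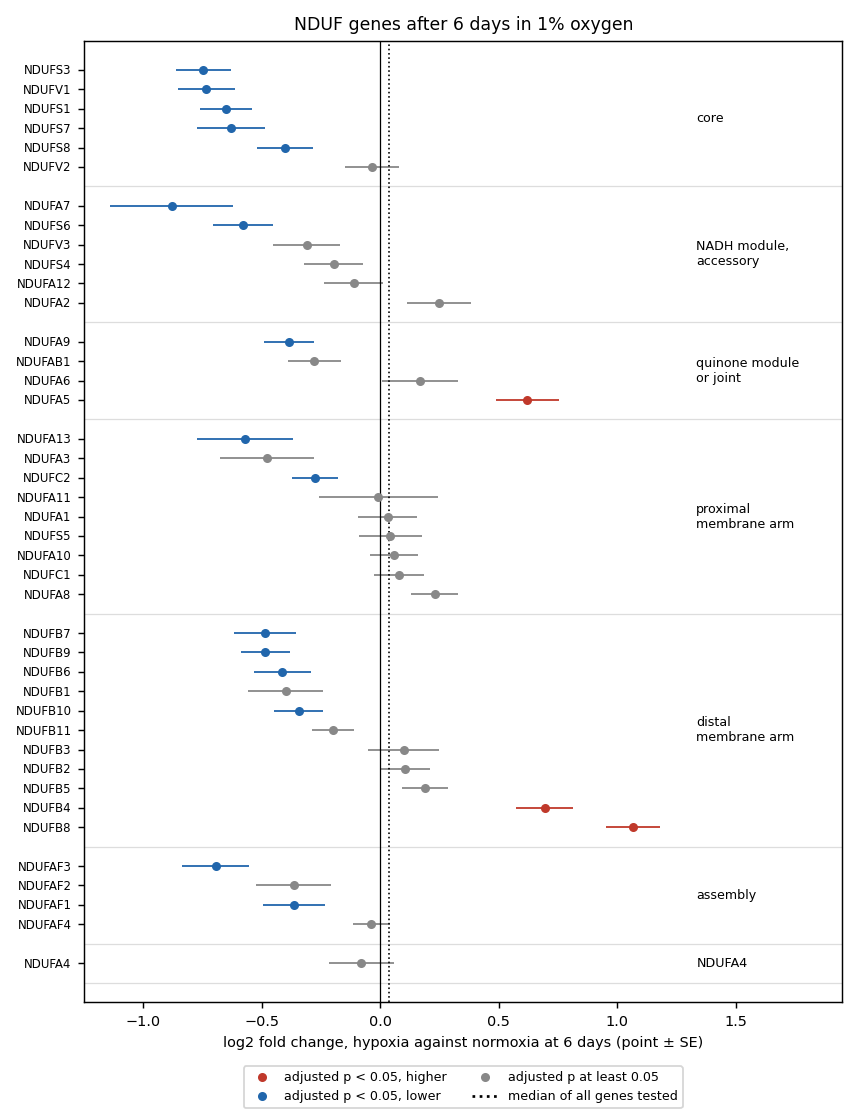
Log2 fold change of 41 tested NDUF genes in hypoxia against normoxia at 6 days (point, with bars of 1 SE), grouped by role; red is higher and blue lower at an adjusted p under 0.05, grey is not called and the dotted line is the median of all genes. Of the 6 core subunits shown 5 lie to the left in blue, and NDUFB8, NDUFB4 and NDUFA5 are the 3 red points.

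The nuclear-encoded core subunits held the most falls: of the 6 described here 5 fell and none rose, against 18.3% and 23.9% of all genes. Their median log2 fold change was −0.64, against 0.04 for all genes tested. LUM and DCN, 2 of 5 fibroblast markers, rose in the same libraries. The other markers, COL1A1, COL1A2 and PDGFRB, had means under 1 RPKM over the 12 libraries. The 5 markers summed to 26.4 to 26.9 RPKM in normoxia and 37.1 to 40.0 RPKM in hypoxia, and their part in the falls was not tested. NDUFS3, the scaffold of the quinone module, was at 24.8 and 20.3 RPKM in normoxia and at 14.0 and 12.4 RPKM in hypoxia. These 2 hypoxia libraries were below all 10 others, and the fall was 1.68-fold (log2 −0.75 ± 0.12 SE, adjusted p = 0.000495). NDUFV1, which binds NADH and the flavin, was at 29.4 and 31.6 RPKM against 17.7 and 18.6 RPKM, a 1.66-fold fall (log2 −0.73 ± 0.12 SE, adjusted p = 0.000748). NDUFS1, the largest subunit and a carrier of iron-sulfur clusters, fell 1.57-fold from 36.9 and 36.4 RPKM to 24.1 and 22.3 RPKM. NDUFS7, holder of the last cluster before quinone, fell 1.55-fold, and NDUFS8, a further iron-sulfur subunit, fell 1.32-fold. NDUFV2, which has a cluster on the NADH side, was the exception. It was at 43.9 and 36.9 against 40.8 and 37.7 RPKM, overlapping, with a log2 difference of −0.04 (95% interval −0.29 to 0.22, adjusted p = 0.828 by limma).

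Of the 6 accessory subunits of the NADH module, 2 fell and none rose, against 18.3% and 23.9% of all genes. NDUFA7 was at 18.7 and 16.0 RPKM in normoxia and 9.79 and 8.59 RPKM in hypoxia, the steepest fall of all NDUF genes (1.84-fold, adjusted p = 0.0190). Its call was lost without library 9 or without library 12 (largest adjusted p 0.104). In normoxia at 6 hr NDUFA7 had been at 5.11 and 10.2 RPKM, so the hypoxia libraries of 6 days lay within the range of the earlier libraries. NDUFS6, a zinc-binding subunit that joins late, fell by 0.58 on the log2 scale (22.0 ± 2.59 to 14.5 ± 0.0124 RPKM, SD, n = 2, adjusted p = 0.00409 by limma). NDUFA2 had the highest log2 fold change of the group (0.25, adjusted p = 0.162).

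Of the 4 accessory subunits in the quinone module or at the joint of the arms, NDUFA5 rose and NDUFA9 fell. Over all genes 23.9% rose and 18.3% fell. NDUFA5, a matrix-arm subunit beside NDUFS3, was at 14.6 and 14.0 RPKM in normoxia and 23.3 and 21.3 RPKM in hypoxia. Both hypoxia libraries were above all 10 others, which lay between 13.4 and 18.3 RPKM, and the rise was 1.54-fold (log2 0.62 ± 0.13 SE, adjusted p = 0.0034). NDUFA9, which holds a nucleotide at the joint of the arms, fell 1.31-fold (adjusted p = 0.0138), a call lost without library 10 or library 12. RefSeq lists 12 pseudogenes named after NDUFA5 and 12 after NDUFB4, against 3 for NDUFB8 and none for NDUFS3 or NDUFV1. How reads of near-identical copies were assigned is not stated in the labels, so the values of NDUFA5 and NDUFB4 are uncertain in that respect. In RefSeq other genes overlap NDUFA5 (ASB15), NDUFAF3 (DALRD3), NDUFB6 (SMIM27), NDUFB11 (RBM10), NDUFS6 (MRPL36) and NDUFA3 (TFPT), and without a stated use of strand their reads cannot be told apart.

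In the proximal membrane arm 2 of 9 accessory subunits fell (22.2%), NDUFA13 and NDUFC2, a share near the 18.3% of all genes that fell, and the median of 0.03 was that of all genes tested to within 0.01. NDUFA13 was at 61.7 and 51.7 RPKM in normoxia and 43.8 and 32.6 RPKM in hypoxia, a 1.49-fold fall (adjusted p = 0.0414) that held in 5 of the 12 fits without a library and was lost without any 1 of libraries 5 to 10 or 12 (largest adjusted p 0.269). NDUFC2 fell 1.21-fold (adjusted p = 0.0375), lost without any 1 of libraries 7 to 12, and shares its span with NDUFC2-KCTD14. NDUFA8 had the highest log2 fold change of the group (0.23, adjusted p = 0.0827). NDUFA11 had no measurable difference at this spread: its hypoxia libraries stood at 12.8 and 23.5 RPKM, on either side of normoxia at 17.5 and 17.4 RPKM (95% interval of the log2 difference −0.56 to 0.54).

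In the distal membrane arm 2 of 11 accessory subunits rose (18.2%) and 4 fell (36.4%), against 23.9% and 18.3% of all genes. NDUFB8 was at 40.0 and 36.8 RPKM in normoxia and 78.6 and 83.2 RPKM in hypoxia, a 2.09-fold rise (log2 1.07 ± 0.11 SE, 95% interval 0.81 to 1.32, adjusted p = 4.18e-05). Its share of the summed subunit RPKM went from 3.67 and 3.39% to 7.72 and 8.37%, and in library 12 it was the most abundant subunit RNA. NDUFB4, a further subunit of the same arm, was at 22.3 and 24.5 RPKM against 39.2 and 37.0 RPKM, a 1.62-fold rise (log2 0.69 ± 0.12 SE, adjusted p = 0.00104). In the opposite direction, NDUFB9, which binds the acyl carrier protein, fell 1.40-fold (51.5 and 51.3 RPKM to 37.7 and 35.5 RPKM). NDUFB7, a cysteine-rich subunit on the intermembrane side, was at 14.4 and 16.4 RPKM against 10.0 and 11.7 RPKM, also a 1.40-fold fall (adjusted p = 0.0119), lost without library 10 or library 11. NDUFB6 and NDUFB10 fell 1.33-fold and 1.27-fold.

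**Figure D3:**
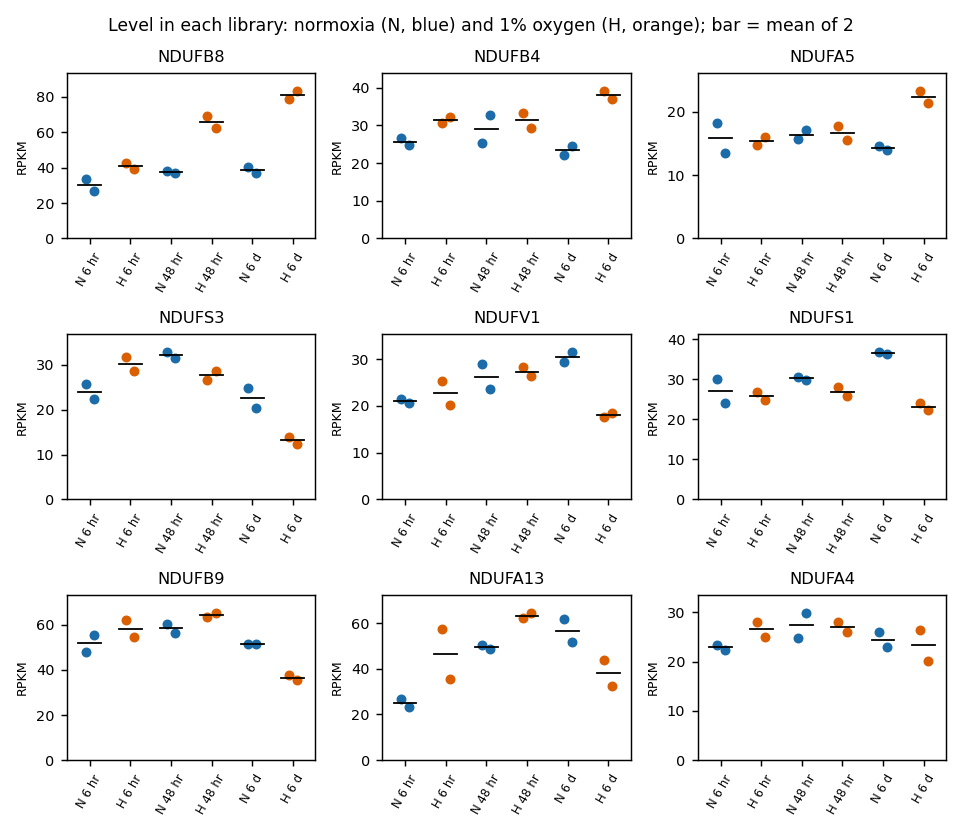
RPKM in each library (points, blue normoxia and orange 1% oxygen) for 9 NDUF genes at 6 hr, 48 hr and 6 days, with a bar at the mean of the 2 libraries and each vertical axis from 0. NDUFB8 is higher in hypoxia at every time and reaches 83.2 RPKM, NDUFB4 and NDUFA5 have their highest points in hypoxia at 6 days, and NDUFS3, NDUFV1, NDUFS1 and NDUFB9 their lowest means there.

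NDUFB8 was the only NDUF gene called at more than 1 time in the same direction. At 6 hr it was at 33.5 and 26.9 RPKM in normoxia and 42.7 and 39.0 RPKM in hypoxia, without overlap (log2 0.43, adjusted p = 0.0689). Its neighbours on the chromosome in RefSeq are SEC31B and HIF1AN, the gene of an oxygen-dependent HIF hydroxylase. SEC31B also rose, by log2 0.69, 0.61 and 0.76 at 6 hr, 48 hr and 6 days (adjusted p = 0.00586, 0.00531 and 0.000402), and stood at 2.39 to 4.41% of the NDUFB8 level over the 12 libraries. HIF1AN was not called at any of them (log2 0.00, 0.14 and 0.20). The rise of NDUFB8 was accompanied at 48 hr and 6 days by that of LUM and DCN, 2 of 5 fibroblast markers. The 5 markers summed to 17.5 to 18.9 RPKM in normoxia and 30.1 to 33.3 RPKM in hypoxia at 48 hr, and to 26.4 to 26.9 against 37.1 to 40.0 RPKM at 6 days. COL1A2 and PDGFRB were at or under 0.153 RPKM in those libraries and COL1A1 at or under 0.785 RPKM, and the part of these markers in the rise of NDUFB8 was not tested.

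Counting from all 12 libraries, 16 of 42 NDUF genes had both 6-day hypoxia libraries below all 10 others, against 18.1% of all genes tested, and 4 had both above, against 23.2%. The 4 were NDUFA5, NDUFB4, NDUFB5 and NDUFB8. No test was attached to these counts.

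The assembly factors with the NDUF prefix had 2 falls of 4 at 6 days, against 18.3% of all genes. NDUFAF3, which works with NDUFAF4 on the quinone module, fell 1.62-fold (16.5 and 17.8 RPKM to 9.85 and 11.02 RPKM, log2 −0.69 ± 0.14 SE, adjusted p = 0.0027). NDUFAF1, a partner of ACAD9 and ECSIT in building the membrane arm, fell 1.29-fold (adjusted p = 0.0421), a call lost without any 1 of libraries 3, 4 and 7 to 12 (largest adjusted p 0.225). NDUFAF4 was at 6.04 and 6.27 against 5.83 and 6.15 RPKM, overlapping (adjusted p = 0.725). NDUFAF2, which comes on with the NADH module, was 11.2 ± 0.667 against 8.53 ± 0.0808 RPKM (SD, n = 2, adjusted p = 0.0839 by limma).

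Assembly factors named otherwise were represented by 15 tested symbols, of which 6 fell and 1 rose at 6 days (median −0.23), against 18.3% and 23.9% of all genes. ECSIT fell 1.87-fold (10.8 ± 1.03 to 5.56 ± 0.517 RPKM, SD, n = 2, adjusted p = 0.00097 by limma), ACAD9 1.59-fold, FOXRED1, a flavoprotein, 1.63-fold and NUBPL, which delivers iron-sulfur clusters to complex I, 1.48-fold (adjusted p = 0.00102, 0.00116 and 0.000908). The member that rose was TMEM70, which also serves the ATP synthase (log2 0.59, adjusted p = 0.00378). At 48 hr NUBPL alone of the 15 passed, 1.37-fold lower, against 12.1% of all genes called. At 6 hr the older symbol C9orf123 alone passed, 1.61-fold higher, against 3.59%.

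NDUFA4 is now counted as a subunit of complex IV, and RefSeq lists it as COXFA4. It was at 23.3 and 22.4 against 28.1 and 25.1 RPKM at 6 hr. It was at 24.8 and 29.9 against 28.1 and 26.0 RPKM at 48 hr, and at 25.9 and 23.0 against 26.4 and 20.1 RPKM at 6 days. The groups overlapped at the last 2 times and no comparison was called, with 95% intervals of the log2 difference of −0.09 to 0.51, −0.31 to 0.29 and −0.38 to 0.22.

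NDUFA4L2, its paralog and a known HIF target that lowers complex I activity, was near the detection limit at 0.0182 to 0.888 RPKM. Scaled by the implied library totals, its values lie within 0.00799 of whole multiples of a common step, set from its lowest value. Taking that step as 1 read, which was assumed, gives 2 and 1 reads in normoxia and 9 and 13 in hypoxia at 6 hr. The counts were 5 and 1 against 8 and 5 at 48 hr, and 12 and 27 against 35 and 26 at 6 days. These reads are inferred, and in library 8 (hypoxia, 48 hr) only 75.6% of the low values of small RNA genes came out whole. Hypoxia was higher at 6 hr, 22 against 3 reads in all, a ratio of 7.73 per total read (exact 95% interval 2.32 to 40.3). At 48 hr the ratio was 2.68, with an interval of 0.952 to 8.61 that includes no difference. At 6 days the ratio was 1.61 (1.06 to 2.47) and the single libraries overlapped. Such intervals hold the error of counting alone, since reads copied by PCR are no separate molecules. In the fit without a filter the adjusted p was 0.282, 0.575 and 0.0985 at the 3 times by limma. With oxygen and time as additive terms in that fit, NDUFA4L2 was called higher in hypoxia (log2 0.38, adjusted p = 0.0286). Within normoxia NDUFA4L2 was 16.9-fold higher per total read at 6 days than at 6 hr (interval 5.36 to 85.3, adjusted p = 0.00272 without a filter). NDUFC2-KCTD14 was at 0 to 0.0790 RPKM.

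**Figure D4:**
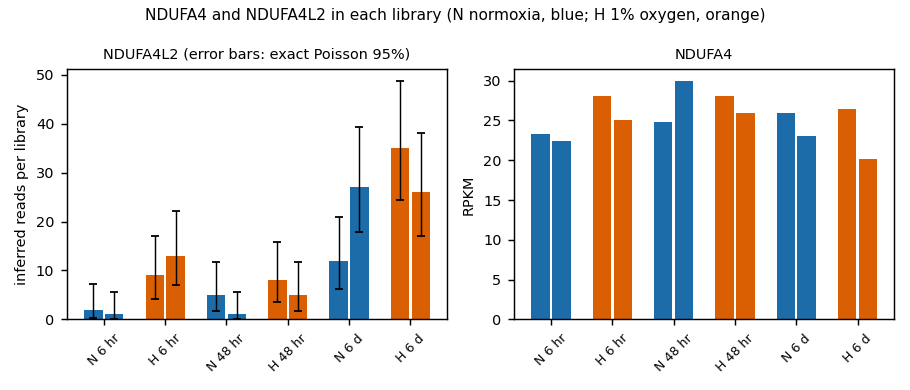
Inferred reads of NDUFA4L2 (left, bars from 0 with exact Poisson 95% error bars) and RPKM of NDUFA4 (right, bars from 0) in each library, blue for normoxia and orange for 1% oxygen. NDUFA4L2 has 1 to 27 reads in normoxia and 5 to 35 in hypoxia, while NDUFA4 stays between 20.1 and 29.9 RPKM.

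The precursor of miR-210, known as a hypoxia-induced microRNA with ISCU and NDUFA4 among its reported targets, was read in the same libraries. Its mature arm is shown with the seed, bases 2 to 8, in capitals, from chr11:568112-568133 on the minus strand of GRCh38.p14.
hsa-miR-210-3p: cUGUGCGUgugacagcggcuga
The precursor was at 0.351 and 0.696 RPKM in normoxia and 2.13 and 2.04 RPKM in hypoxia at 6 hr, at 0 and 0 against 7.81 and 7.20 RPKM at 48 hr, and at 0 and 0.600 against 10.7 and 9.04 RPKM at 6 days. Hypoxia was higher at each time without overlap. The normoxia values were at or near 0, and no test was made on the precursor. ISCU, a scaffold for iron-sulfur clusters, had log2 fold changes of 0.11 at 6 hr and −0.27 at 48 hr, neither called (adjusted p = 0.678 and 0.152). It was 1.61-fold lower at 6 days (log2 −0.68, adjusted p = 0.000691), and NDUFA4 was not called at any time.

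Differences of the hypoxia effect between times were then tested for each gene in the same model. Between 6 days and 6 hr, 18 of 42 NDUF genes had a different effect, 15 towards lower and 3 towards higher at 6 days, against 21.4% of all genes (10.2% lower and 11.2% higher). The 3 were NDUFA5 (log2 difference of effects 0.65), NDUFB8 (0.63) and NDUFB5 (0.43), and the lowest were NDUFA13 (−1.41) and NDUFA7 (−1.32). None of the 3 higher calls held in every fit that left out a library, as 5 of the 15 lower calls did. The core subunits NDUFS1, NDUFS3, NDUFS7, NDUFS8 and NDUFV1 were among the 15. The count of 18 was 6 without library 3 or 10, 7 without 12, 8 without 11 and 11 without 9. Between 6 days and 48 hr, 5 of 42 had a lower effect at 6 days (NDUFA3, NDUFV1, NDUFS6, NDUFB9 and NDUFB11), against 10.7% of all genes (5.31% lower and 5.38% higher). With quantile normalization this was 13 lower and 2 higher, and with trimmed-mean centring 11 lower and 2 higher. None of the 42 was called without library 7, 10, 11 or 12, 1 without 8, 2 without 5, 6 or 9, and 12 without 1 or 2. Between 48 hr and 6 hr none of 42 was called by limma, against 0.528% of all genes (0.511% higher and 0.0168% lower). That lack of calls does not show that the effects were equal. These 3 contrasts share libraries, so their counts are not independent.

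**Figure D5:**
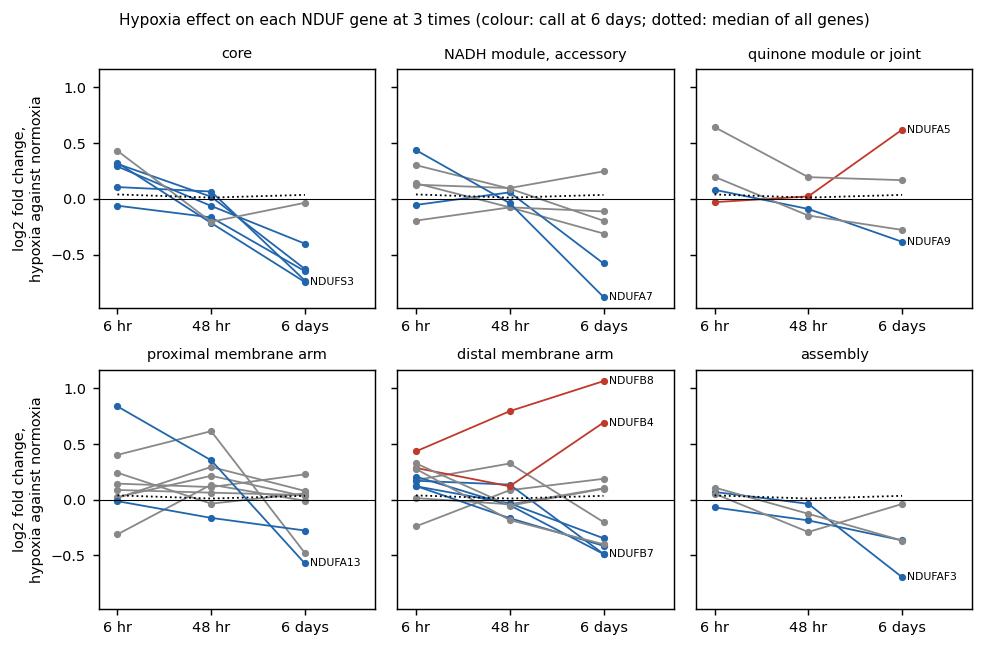
Log2 fold change of hypoxia against normoxia (vertical axis) at 6 hr, 48 hr and 6 days (horizontal axis) for the tested genes of 6 role groups (6 core subunits), with a line per gene coloured by its call at 6 days (red higher, blue lower, grey not called) and the median of all genes dotted. Core lines run from a median of 0.30 at 6 hr to −0.64 at 6 days, and NDUFB8 climbs from 0.43 to 1.07.

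Averaged over the 3 times with oxygen and time as additive terms, NDUFB8 (log2 0.77), NDUFB4 (0.37) and NDUFA6 (0.34) were higher in hypoxia and NDUFS1 was lower (−0.29), 4 of 42, against 22.5% of all genes (15.3% higher and 7.13% lower). NDUFB8 had adjusted p = 0.000175, and NDUFB4, NDUFA6 and NDUFS1 had 0.0182, 0.0445 and 0.0470. The split moved with the scaling, to 3 higher and 2 lower with quantile normalization and to 2 higher and 4 lower with trimmed-mean centring. Without any 1 of libraries 4, 5, 7, 9, 10 and 11, 2 were called.

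The controls changed with time as well. In normoxia at 6 days against 6 hr, 8 of 42 NDUF genes were higher and 10 lower, against 56.7% of all genes (30.9% higher and 25.9% lower). With quantile normalization the split was 15 higher and 7 lower, and with trimmed-mean centring 9 higher and 13 lower. Without library 9, 6 were higher and 4 lower. NDUFA7 rose 2.30-fold (7.63 ± 3.56 to 17.4 ± 1.89 RPKM, SD, n = 2, adjusted p = 0.00222 by limma) and NDUFA13 2.23-fold (25.1 ± 2.70 to 56.7 ± 7.13 RPKM, SD, n = 2, adjusted p = 0.000564 by limma). NDUFB7 fell 1.65-fold, from 26.9 and 24.4 RPKM to 14.4 and 16.4 RPKM, and NDUFAF4 fell 1.49-fold, from 9.67 and 9.11 RPKM to 6.04 and 6.27 RPKM. Between 48 hr and 6 hr of normoxia none of 42 was called by limma, against 0.0922% of all genes (0.00838% higher and 0.0838% lower). That lack of calls does not show that none changed. Without library 1, 14 of 42 were called, all higher at 48 hr, and without library 3 or 4, 1 was.

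Set beside these changes, the 17 genes that fell in hypoxia at 6 days were of 3 kinds. In normoxia between 6 hr and 6 days, 4 of them had risen (NDUFA7, NDUFA13, NDUFS1 and NDUFV1), 3 had fallen (NDUFB7, NDUFB10 and NDUFC2) and 10 were not called. Both comparisons use the normoxia libraries of 6 days, so these counts are given side by side and not as an association. For NDUFS3 normoxia was 24.0 ± 2.31 RPKM at 6 hr and 22.6 ± 3.19 RPKM at 6 days (SD, n = 2), and for NDUFB9 51.8 ± 5.41 and 51.4 ± 0.163 RPKM (SD, n = 2). For NDUFV1, by contrast, normoxia went from 21.0 ± 0.550 to 30.5 ± 1.56 RPKM while hypoxia at 6 days was 18.1 ± 0.602 RPKM (SD, n = 2).

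Other parts of the respiratory chain were read from lists. Of 38 subunits of complexes II to V, 10 fell and 2 rose at 6 days, with a median of −0.11, against 18.3% and 23.9% of all genes. None of them was called at 6 hr by limma, against 3.59% of all genes, which does not show that none changed. The ATP synthase subunits ATP5G1 and ATP5D fell 2.34-fold and 2.24-fold (adjusted p = 0.000205 and 4.22e-05), the succinate dehydrogenase subunit SDHB 1.76-fold and the cytochrome oxidase subunit COX8A 1.44-fold, after COX8A had risen 1.30-fold at 48 hr. UQCRB and UQCRH, of complex III, rose (log2 0.36 and 0.38, adjusted p = 0.0242 and 0.0115). Of 7 tested genes for enzymes or electron carriers on routes to quinone without complex I, 3 fell and none rose at 6 days. Over all genes 18.3% fell and 23.9% rose. Those 3 that fell were ETFDH, of fatty acid oxidation, 2.37-fold, SQRDL, the sulfide oxidase, 1.53-fold, and GPD2, the glycerol phosphate dehydrogenase, 1.34-fold. Of 12 regulators of mitochondrial gene expression 6 fell and 1 rose at 6 days, against 18.3% and 23.9% of all genes. Those that fell included the mitochondrial RNA polymerase POLRMT (1.51-fold lower), the transcription factor TFB2M (1.48-fold lower) and the nuclear receptor ESRRA (1.44-fold lower). The one that rose was TFB1M, a ribosomal RNA methylase (1.68-fold).

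Known hypoxia-responsive partners of the chain were also read from a list, which was chosen with earlier results of these data known. Of 11 tested, 5 rose and none fell at 6 hr, against 3.39% of all genes higher and 0.201% lower. At 48 hr 5 rose and 1 fell, against 9.24% of all genes higher and 2.89% lower. At 6 days 4 rose and 3 fell (median log2 −0.16), against 23.9% of all genes higher and 18.3% lower. The partners that rose at each time included BNIP3, PDK1 and MXI1, by 8.45-fold, 3.50-fold and 3.92-fold at 6 days (adjusted p = 2.32e-08, 1.16e-07 and 3.72e-07 by limma). LONP1, the matrix protease, rose at 6 hr and 48 hr (log2 0.56 and 0.72) and fell at 6 days (−0.35, adjusted p = 0.0143). COX4I2, a cytochrome oxidase isoform known as a HIF target, was listed at 0 in 10 of the 12 libraries.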

How the data were processed

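RNA of 12 libraries was sequenced as 75-base forward reads on a SOLiD 5500xl after ribosomal depletion, per the labels' protocols. The authors deposited RPKM per gene symbol. Partek 6.6 and the build hg19 appear in the submitters' processing notes with no role given, while aligner, gene models, filtering and use of strand are not given in the sources used. Libraries were grouped by the oxygen and time in their labels, with 2 in each of 6 groups.

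From the deposited RPKM, log2(RPKM + 0.5) was fitted with limma 3.58.1 in R 4.3.3, with 1 mean per group, an intensity trend and 6 residual degrees of freedom. Of all symbols, 11933 with at least 1 RPKM in 2 libraries were tested. All adjusted p-values, unless another tool is named, are two-sided and from limma, with Benjamini-Hochberg adjustment over these genes in each of 9 comparisons. Intervals of NDUFA4L2 ratios are exact conditional binomial intervals from scipy 1.17.1. Depth was implied from the steps of the low RPKM values in the precursor table of the same libraries, of which 94.4 to 98.7% came out whole within 0.05 reads. With these totals, 75.6 to 100% of the low values of small RNA genes in the gene table came out whole (27 to 45 values a library, lowest in library 8). No count test was made on the gene table. One tested gene is not reported here by name, though counts over all 42 tested NDUF genes include it. The code for the fit was tested on simulated data.

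The NDUF members and all gene lists were chosen with earlier results of these data known. Genes named with values in every library were the 3 highest and the 3 lowest log2 fold changes in hypoxia at each time, the 2 highest and 2 lowest in normoxia over time and in the change of the effect from 6 hr to 6 days, the ends of each role at 6 days, and NDUFA4 with NDUFA4L2. Values given for other genes are those that passed the test in their list, or markers, and NDUFB8 neighbours were added after its values were seen. Alternatives were pseudocounts of 0.1 and 1, no filter, a mean of at least 5 RPKM, quantile normalization, trimmed-mean centring, no intensity trend, the compared groups alone, and each library left out.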

Additional observations from a re-analysis of the deposited data

Results flagged for a closer look

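The effect of hypoxia at 6 days differed from that at an earlier time in the 22 results given here, each by a contrast within the same limma model with an adjusted p under 0.05. The gene not reported by name adds 1 result to the counts of 18 and 5 in the report and is left out. Values are the log2 fold change at 6 days minus that at the earlier time. Against 6 hr 5 nuclear-encoded core subunits moved down: NDUFS3 by −1.07 (adjusted p = 0.00191), NDUFS7 by −0.94, NDUFV1 by −0.84 (adjusted p = 0.00745), NDUFS8 by −0.69 and NDUFS1 by −0.59. Accessory subunits of the matrix arm and its joint moved down by −1.32 (NDUFA7, adjusted p = 0.0273) and −0.47 (NDUFA9). In the membrane arm the values were −1.41 for NDUFA13 (adjusted p = 0.00716), −0.88 for NDUFA3, −0.70 for NDUFB7, −0.66 for NDUFB9, −0.54 for NDUFB6 and −0.47 for NDUFB10. The assembly factor NDUFAF3 stood at −0.77. The effect moved up in NDUFA5 by 0.65 (adjusted p = 0.0309), in NDUFB8 by 0.63 (adjusted p = 0.0196) and in NDUFB5 by 0.43 (adjusted p = 0.0456). None of these upward calls held in every fit that left out a library.

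Against 48 hr the values were −1.10 for NDUFA3, −0.80 for NDUFV1, −0.64 for NDUFS6, −0.62 for NDUFB9 and −0.53 for NDUFB11, with adjusted p of 0.0326, 0.0169, 0.0469, 0.0238 and 0.0252 by limma. NDUFA13, NDUFB9, NDUFS3, NDUFS7 and NDUFV1 were called against 6 hr in every fit run, each library left out included.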

How the results depend on the processing

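No paired analysis was possible because the library numbers 1 to 12 are not shared between the groups of RNA libraries. Of 210 results for single genes, 2184 of 2520 values with a library left out were unchanged. Unchanged means the same call and direction, or no call in either fit and a shift under 1 SE of the main fit. Another 175 lost the call, 40 gained one and 121, uncalled in both fits, moved by 1 SE or more. Among values called in either fit, 0 reversed. Direction was not compared where neither fit made a call. Under the other alternatives the same counts were 1586 of 1680, 41, 46, 7 and 0, in that order. Counts of called NDUF genes moved more. At 6 hr the 1 call became 0 with no filter, 2 with a mean of at least 5 RPKM, 3 with quantile normalization, 3 with trimmed-mean centring, 0 with no intensity trend and 0 with only the groups compared, and ranged from 0 to 3 with a library left out. At 48 hr the 3 calls became 5 with only the groups compared and ranged from 1 to 3. At 6 days the 20 calls were 26 with quantile normalization and 27 with trimmed-mean centring, and ranged from 12 to 23. The 18 calls of the effect at 6 days minus 6 hr became 10 with only the groups compared and ranged from 6 to 21. The 5 calls at 6 days minus 48 hr became 3 with no filter, 15 with quantile normalization, 13 with trimmed-mean centring and 13 with only the groups compared, and ranged from 0 to 12. At 48 hr minus 6 hr every alternative gave 0. In normoxia the 0 calls at 48 hr against 6 hr became 1 with a mean of at least 5 RPKM and ranged from 0 to 14, and the 18 at 6 days became 10 with only the groups compared and ranged from 10 to 20. The 4 additive calls became 2 with no intensity trend and ranged from 2 to 4. The cause of these changes was not tested. A group with 1 library left was assumed to vary like the others. Depth, implied at 25.1 M to 51.7 M reads, limits NDUFA4L2, at 1 to 35 reads a library.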
